A study of Mus musculus with 28 samples.

Results

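E proteins and their Id inhibitors are the 6 genes described here: the E proteins Tcf4, Tcf3 and Tcf12 and the inhibitors Id1, Id2 and Id3. They were taken by gene symbol from the 24421 genes counted in each library. E proteins are basic helix-loop-helix transcription factors that bind E-box DNA as dimers. Id proteins have the helix-loop-helix part but no DNA-binding part, so a dimer of an Id and an E protein does not bind DNA. In dendritic cells (DCs) the pair is known as a lineage switch: E2-2, the product of Tcf4, is required for plasmacytoid DCs, and Id2 is required for type 1 conventional DCs.

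RNA was sequenced from DCs sorted from the spleens of untreated C57Bl/6 mice aged 6 to 12 weeks, in 28 libraries. Plasmacytoid DCs, which make type I interferon, came from Irf8fl/fl Itgax-cre mice (pDC_TG, 4 libraries) and from Irf8fl/fl mice (pDC_WT, 8 libraries). Type 1 conventional DCs (cDC1_WT, CD24+, 8 libraries) and type 2 conventional DCs (cDC2_WT, CD172a+, 8 libraries) came from Irf8fl/fl mice. All 4 groups carry the loxP-flanked Irf8 alleles, and only pDC_TG carry Cre, expressed from the promoter of Itgax, the CD11c gene. The study addresses what the transcription factor IRF8 does in mature DCs. The labels describe the antibody sort of the conventional DCs, but not the gate used for the plasmacytoid DCs. The design text counts 4 replicates for a sample, whereas each WT group has 8 labelled libraries, and no source used here explains the difference. All 8 were used as replicates, and WT replicates 1 to 4 and 5 to 8 were also fitted apart.

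Libraries held 17299285 to 30787679 gene counts. Irf8 averaged 1461 ± 257 CPM in pDC_TG (SD, n = 4) and 6145 ± 459 CPM in pDC_WT (n = 8), where CPM is a count scaled to library size by the TMM method of edgeR. Some Irf8 transcript therefore remained in pDC_TG, and counts per gene do not separate deleted from intact exons. The 5 pDC markers (Siglech, Ccr9, Bst2, Klk1, Ly6d) summed to 6613 to 8937 CPM in pDC_TG, 7675 to 10171 CPM in pDC_WT, 71.8 to 97.1 CPM in cDC1_WT and 38.2 to 51.4 CPM in cDC2_WT. The markers did not move together between the pDC groups. Klk1 averaged 217 CPM in pDC_TG and 959.9 CPM in pDC_WT, and Siglech, Ccr9 and Bst2 also had lower means in pDC_TG. Ly6d, the largest part of the pDC_TG sum, had a higher mean there (4257 against 2904 CPM). The 9 neutrophil markers summed to 0.230, 0.340, 4.59 and 196 CPM in pDC_TG replicates 1 to 4, against 0.195 to 2.62 CPM in pDC_WT. In sorted bulk samples, fewer cells expressing a gene and less RNA per cell cannot be told apart.

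The promoters of Id2, Id3 and Tcf12 are shown because their transcripts differed most clearly between the cell groups, apart from Tcf4. Each is the 250 bases before the RefSeq start in GRCm38.p6, 5′ to 3′ on the strand of the gene, with E-boxes (CANNTG, the same on both strands) in capitals. Promoter windows were taken for 4 of the 6 genes (Tcf3, Tcf12, Id2, Id3), and Tcf12 had 3 starts, of which the first is shown. No window was taken for Tcf4 or Id1, which does not mean that RefSeq lacks them.
Id2, chr12:25096093-25096342, minus strand: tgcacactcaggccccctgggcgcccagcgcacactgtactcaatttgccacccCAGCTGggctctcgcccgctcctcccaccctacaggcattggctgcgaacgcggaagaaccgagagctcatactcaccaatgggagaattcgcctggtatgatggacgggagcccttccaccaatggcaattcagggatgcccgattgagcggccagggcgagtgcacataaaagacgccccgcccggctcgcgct
Id3, chr4:136143572-136143821, plus strand: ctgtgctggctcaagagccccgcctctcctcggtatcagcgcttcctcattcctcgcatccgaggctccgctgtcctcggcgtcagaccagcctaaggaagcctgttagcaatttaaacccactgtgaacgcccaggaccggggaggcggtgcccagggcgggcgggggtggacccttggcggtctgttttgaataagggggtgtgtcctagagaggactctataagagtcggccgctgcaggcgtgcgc
Tcf12, chr9:72111820-72112069, minus strand: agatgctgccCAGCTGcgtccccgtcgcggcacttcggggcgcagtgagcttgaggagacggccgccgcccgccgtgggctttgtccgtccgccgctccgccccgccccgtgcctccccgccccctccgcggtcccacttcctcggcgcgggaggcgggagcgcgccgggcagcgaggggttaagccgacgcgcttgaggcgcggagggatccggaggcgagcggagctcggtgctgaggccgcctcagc

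The Id2 window held 1 E-box and so did the first Tcf12 window, whereas the Id3 window held 0. An E-box was present in 66.2% of 32841 RefSeq promoter windows of this length, so its presence is common. A match is a description of these letters and not a binding site.

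The annotation places Tcf4 on mouse chromosome 18, Tcf3 at chr10:80409514-80433647 and Tcf12 at chr9:71842688-72111871 (GRCm38, both on the minus strand). Id1 lies at chr2:152736251-152737410 and Id3 at chr4:136143497-136145755 on the plus strand, and Id2 at chr12:25093799-25097140 on the minus strand. By these coordinates the Id2 and Id3 promoter windows shown lie wholly inside the annotated genes, and the first Tcf12 window lies partly inside. All 6 are protein-coding genes, and none shares exonic bases with another gene. The symbols Tcf3 and Tcf4 are also old names of the unrelated HMG-box genes Tcf7l1 and Tcf7l2, which are counted under their own symbols in these files.

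**Figure D1:**
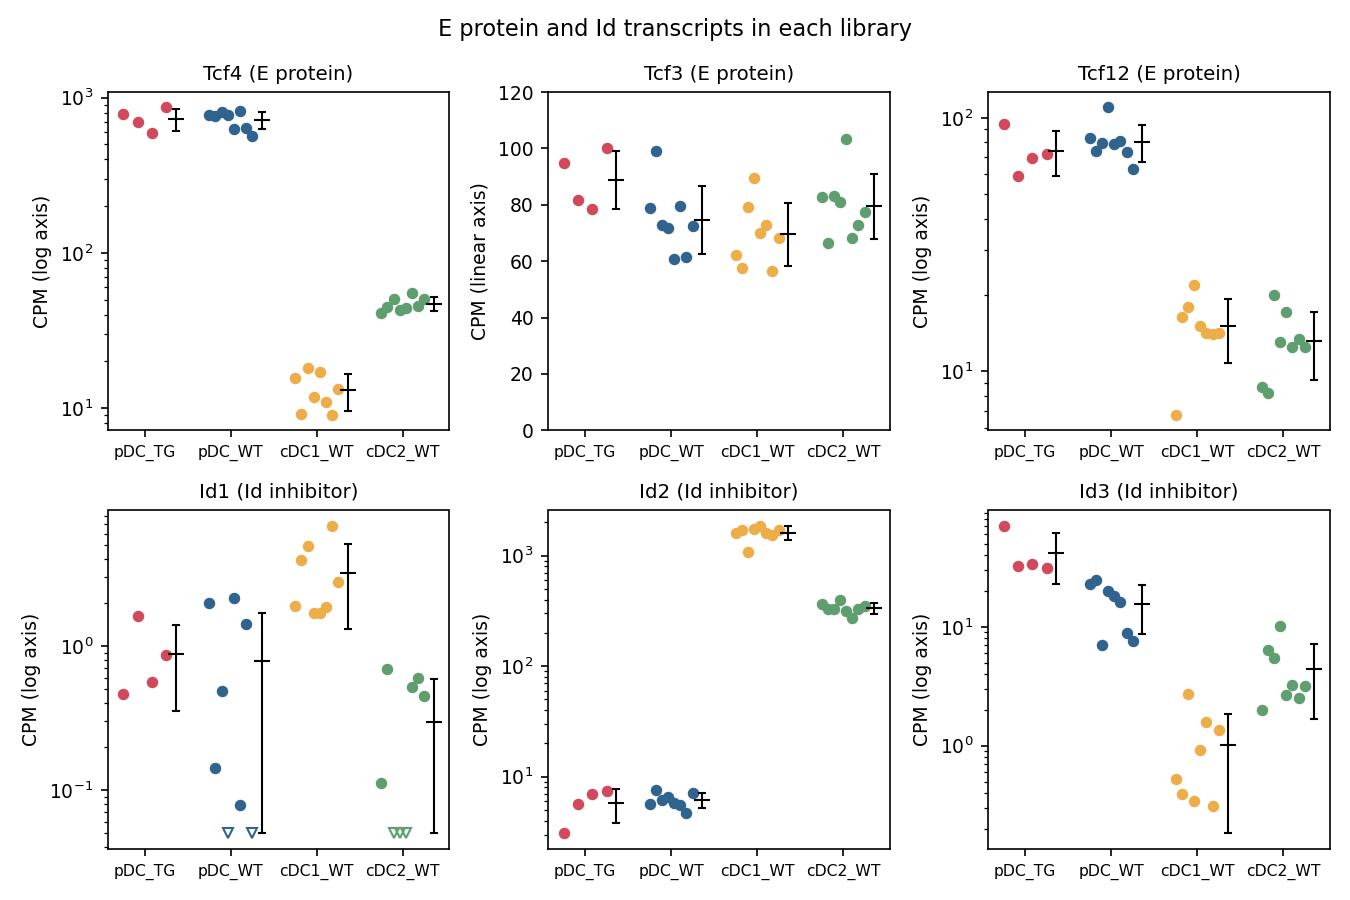
CPM of each member (y axis, log scale except for Tcf3) in every library, by group along the x axis; points are libraries, crosses with bars are means ± SD, with bars stopped at the lower end of the axis, and open triangles are libraries with no count. Tcf4 and Tcf12 are high in both pDC groups, Id2 is high in both conventional DC groups, and Id3 is above the pDC_WT range in all 4 pDC_TG libraries.

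In pDC_TG against pDC_WT, 5 of the 6 genes did not pass the test and Id3 was higher. The test was the edgeR quasi-likelihood test over 13159 genes, with a Benjamini-Hochberg adjusted p below 0.05 as the threshold. Of all genes tested, 7.72% were higher and 7.04% lower, so 1 of 6 members higher and 0 of 6 lower is near the background. The median absolute log2 fold change was 0.15 over the 6 members and 0.29 over all genes tested. All 6 passed the filter on low counts, Id1 with few counts outside cDC1_WT.

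Tcf4 was at 779.8, 692, 589 and 864 CPM in pDC_TG replicates 1 to 4. In pDC_WT its lowest, median and highest values were 563, 761 and 815 CPM. The ranges overlapped, the means lay within 1 SD of each other (731 ± 118 CPM, n = 4, against 718 ± 94.5 CPM, n = 8), and the log2 fold change was 0.03 (SE 0.145, adjusted p = 0.962 in edgeR). An interval of 2 SE on each side ran from -0.26 to 0.32 on the log2 scale. A fall in Tcf4 of the size seen for Irf8, -2.07 on the log2 scale, lies outside that interval.

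Tcf3 encodes E2A, an E protein needed for B lymphocyte commitment. It was at 94.9, 81.6, 78.6 and 100.3 CPM in pDC_TG and at 60.8, 72.7 and 99.1 CPM (lowest, median, highest) in pDC_WT. The ranges overlapped, and the log2 fold change of 0.25 (SE 0.130) did not pass the test (adjusted p = 0.226 in edgeR). Tcf12 encodes HEB, an E protein with a known role in thymocytes. It was at 94.8, 59.1, 69.5 and 71.8 CPM in pDC_TG and at 62.9, 79.0 and 109.9 CPM in pDC_WT (log2 fold change -0.12, SE 0.216, adjusted p = 0.820 in edgeR). Its lowest and its second highest library of the 12 were both pDC_TG libraries.

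Id2, the inhibitor associated with conventional DCs, was low in both pDC groups. It was at 3.07, 5.67, 6.99 and 7.403 CPM in pDC_TG, from 80 to 232 counts, and at 4.68, 5.94 and 7.59 CPM in pDC_WT, from 105 to 213 counts. The ranges overlapped except for pDC_TG replicate 1, which lay below every pDC_WT library. The log2 fold change was -0.08 (SE 0.161, adjusted p = 0.852 in edgeR), and an interval of 2 SE on each side ran from -0.40 to 0.24.

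Id3, an inhibitor induced by antigen receptor and TGF-beta family signals in lymphocytes, was higher in pDC_TG. Its level was 70.7, 32.5, 34.0 and 30.95 CPM in pDC_TG, from 858 to 1841 counts, against 7.01, 17.04 and 24.8 CPM (lowest, median, highest) in pDC_WT, from 187 to 695 counts. Every pDC_TG library lay above every pDC_WT library, a separation of libraries that 9.71% of all genes tested had in either direction. The means were 42.0 ± 19.1 CPM in pDC_TG and 15.7 ± 7.01 CPM in pDC_WT, a 2.68-fold difference (log2 fold change 1.42, SE 0.452, adjusted p = 0.0298 in edgeR). Among the 13159 genes tested this was the 745th largest rise.

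The Id3 call rested on single libraries. Without pDC_TG replicate 1, the highest, the log2 fold change was 1.05 and the adjusted p 0.183 in edgeR. It also missed the threshold without pDC_WT replicate 3 (adjusted p = 0.0531), 7 (0.0537) or 8 (0.0519), the 3 lowest pDC_WT libraries, and against WT replicates 1 to 4 alone (log2 fold change 1.17, adjusted p = 0.241).

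Marker sums of other cell types were read beside the Id3 values. In pDC_TG replicate 1, the library highest for Id3, the neutrophil marker sum was 0.230 CPM and the NK and innate lymphoid cell sum 1.80 CPM, each the lowest of the 4 pDC_TG libraries. All 5 tested neutrophil markers were called higher in pDC_TG than in pDC_WT, and their list had its highest sum, 196 CPM, in pDC_TG replicate 4. The NK and innate lymphoid cell sum reached 5.09 CPM in pDC_TG and ran from 0.430 to 2.38 CPM in pDC_WT. The 5 T cell markers summed to 65.8 to 93.6 CPM in pDC_TG, with replicate 1 the highest, and to 57.7 to 115 CPM in pDC_WT. Cd28 made up most of it, averaging 63.4 CPM in pDC_TG and 79.5 CPM in pDC_WT, and Cd5 alone was called, as higher in pDC_TG. The 6 B cell markers summed to 85.3 to 112 CPM in pDC_TG and 65.8 to 121 CPM in pDC_WT. The 7 cDC1 markers did not move together, with 2 higher, 3 lower and a median log2 fold change of -0.74. Their sum was 500.2 to 884 CPM in pDC_TG, with replicate 1 the lowest, and 372 to 441 CPM in pDC_WT, and Cd8a made up most of it, averaging 660.0 CPM in pDC_TG and 267 CPM in pDC_WT. Tlr3 was the other marker called higher, at 2.48 CPM in pDC_TG and 0.204 CPM in pDC_WT. The markers called lower were Clec9a (6.60 CPM in pDC_TG, 91.6 CPM in pDC_WT), Cadm1 (26.1 CPM in pDC_TG, 43.7 CPM in pDC_WT) and Batf3, at 0 in pDC_TG. The 3 markers shared by conventional DCs (Zbtb46, Itgax, Flt3) summed to 786 to 977 CPM in pDC_TG, with replicate 1 the highest, and to 344 to 551 CPM in pDC_WT. Itgax and Flt3 were called higher. Zbtb46 was not called, at 4.32 CPM in pDC_TG and 5.91 CPM in pDC_WT, against 215 CPM in cDC1_WT and 176 CPM in cDC2_WT. Other sums had lower medians in pDC_TG. The 6 cDC2 markers summed to 1162 to 1385 CPM in pDC_TG and 1334 to 1903 CPM in pDC_WT, but did not move together. Itgam (31.9 CPM in pDC_TG, 0.401 CPM in pDC_WT) and Irf4 (434 CPM in pDC_TG, 146 CPM in pDC_WT) were called higher. Cd4 (470 CPM in pDC_TG, 777 CPM in pDC_WT) and Clec10a (35.2 CPM in pDC_TG, 251 CPM in pDC_WT) were called lower. The 4 plasma cell markers summed to 52.3 to 159.9 CPM in pDC_TG and 152 to 332 CPM in pDC_WT, with Derl3 and Mzb1 called lower and Jchain not called. The 8 macrophage markers summed to 6.16 to 12.1 CPM in pDC_TG and 11.2 to 21.2 CPM in pDC_WT, and the 5 stromal markers to 102 to 150.1 CPM in pDC_TG and 207 to 293 CPM in pDC_WT. Of these 4 sums, the stromal one alone had ranges that did not overlap. Among the stromal markers Kdr was called lower (27.3 CPM in pDC_TG, 180 CPM in pDC_WT) and Vwf higher. Cdh5 was not called (98.9 CPM in pDC_TG, 77.7 CPM in pDC_WT). Kdr, Cdh5 and Cd28 were higher in both pDC groups than in both conventional DC groups. Vwf went the other way, at 0.755 CPM in pDC_TG and 0 in pDC_WT, against 12.1 CPM in cDC1_WT and 7.38 CPM in cDC2_WT. The part of other cells in the Id3 difference was not tested.

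Id1, a target of bone morphogenetic protein signals, was close to the detection limit in plasmacytoid DCs. Counts were 12, 43, 17 and 27 in pDC_TG (0.461, 1.63, 0.566 and 0.862 CPM), against 0 to 46 counts in pDC_WT, where 2 of 8 libraries had no count and the highest reached 2.14 CPM. The ranges overlapped, and the log2 fold change of 0.18 had an SE of 1.06 (adjusted p = 0.966 in edgeR), so a difference of 2-fold in either direction was not detectable. Id4, the remaining Id gene, had 15 counts in pDC_TG replicate 3 and none in the other pDC libraries.

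**Figure D2:**
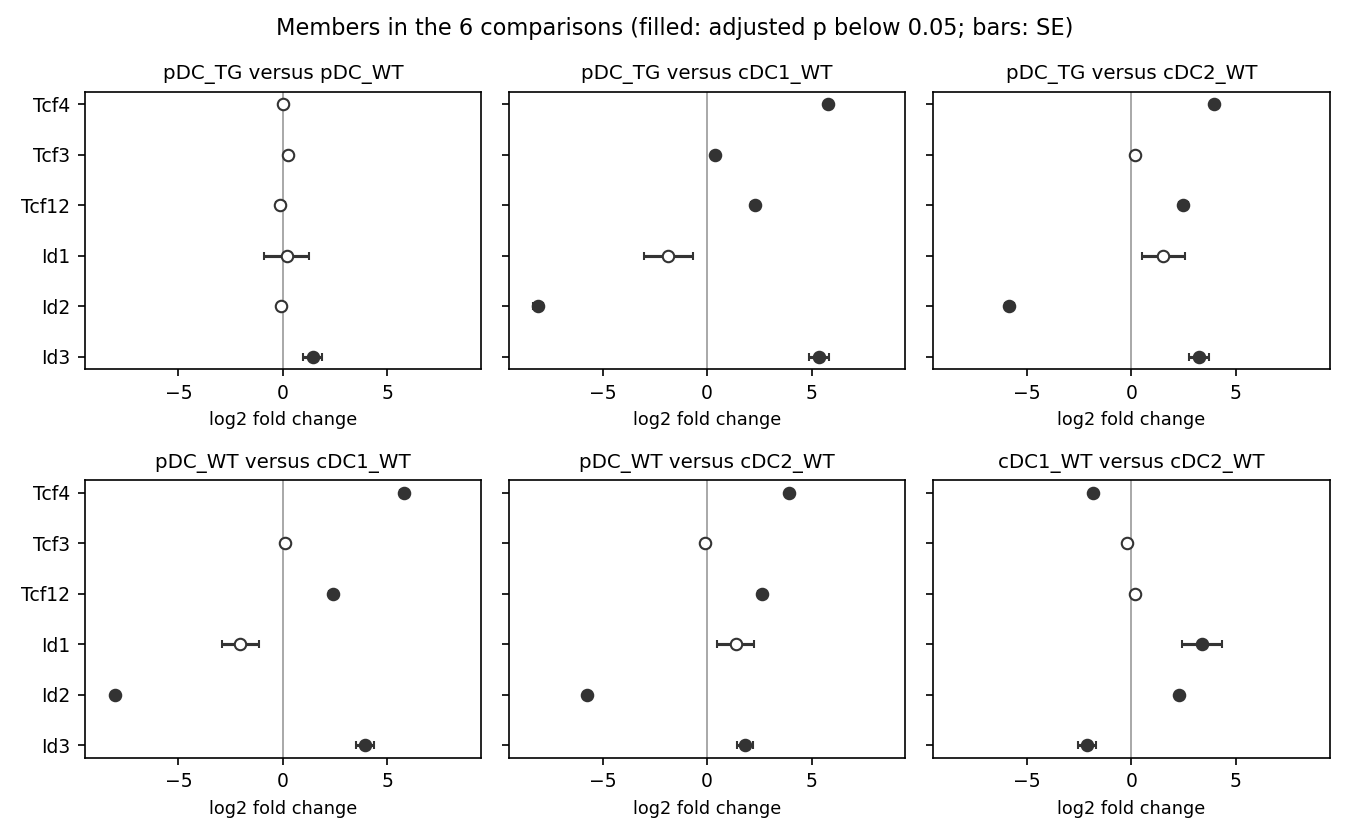
Log2 fold change of each member (x axis) in the 6 comparisons, with SE bars and filled points where the adjusted p was below 0.05. The 4 comparisons of a pDC group with a conventional DC group share high Tcf4, Tcf12 and Id3 and low Id2, and in pDC_TG versus pDC_WT Id3 alone is filled.

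Between pDC_WT and the conventional DCs, the E protein and Id transcripts differed widely. Against cDC1_WT, Tcf4, Tcf12 and Id3 were higher and Id2 was lower in pDC_WT, where 30.3% of all genes were higher and 30.6% lower. Against cDC2_WT Tcf4, Tcf12 and Id3 were again higher and Id2 lower, with 28.3% of all genes higher and 28.8% lower. The median absolute log2 fold change was 3.18 over the members and 0.72 over all genes against cDC1_WT, and 2.21 and 0.65 against cDC2_WT. Libraries did not overlap for 4 members against cDC1_WT and 3 against cDC2_WT, with 30.3% and 29.4% of all genes. Comparisons that share pDC_WT or a conventional DC group are not independent of each other.

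Tcf4 was the E protein that differed most. Its lowest, median and highest levels were 563, 761 and 815 CPM in pDC_WT, 9.04, 12.5 and 18.01 CPM in cDC1_WT, and 41.3, 45.1 and 55.0 CPM in cDC2_WT. No ranges overlapped, so the order of the 3 WT groups was the same in every library. The pDC_WT level was 54.8-fold that of cDC1_WT (log2 fold change 5.78, SE 0.147, adjusted p = 2.18e-24 in edgeR) and 15.3-fold that of cDC2_WT (3.94, SE 0.134, adjusted p = 3.80e-21 in edgeR).

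Tcf12 followed the pDC side without separating the conventional DCs. It ranged from 62.9 to 109.9 CPM in pDC_WT, from 6.73 to 21.9 CPM in cDC1_WT (median 14.6) and from 8.21 to 20.0 CPM in cDC2_WT (median 12.8). The pDC_WT libraries lay above all conventional DC libraries, by 5.34-fold against cDC1_WT (log2 fold change 2.42, SE 0.186, adjusted p = 1.27e-12 in edgeR) and 6.10-fold against cDC2_WT (2.61, SE 0.188, adjusted p = 2.92e-13 in edgeR).

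Tcf3 levels overlapped between all 4 groups. Its ranges were 78.6 to 100.3 CPM in pDC_TG, 60.8 to 99.1 CPM in pDC_WT, 56.6 to 89.6 CPM in cDC1_WT and 66.4 to 103 CPM in cDC2_WT. Over the 28 libraries the SD of its log2 level was 0.23, the smallest of the 6 members, against 3.54 for Id2, the largest. The log2 fold change of pDC_WT was 0.10 against cDC1_WT (adjusted p = 0.422) and -0.09 against cDC2_WT (adjusted p = 0.502 in edgeR), and the sign of the second turned to 0.06 when libraries were scaled by total counts alone. Under that scaling Tcf3 passed the test against cDC1_WT (0.35, adjusted p = 0.00759 in edgeR), but the median log2 fold change of all genes was then 0.28, against 0.03 with TMM. Total counts alone also let Tcf3 pass in pDC_TG against cDC2_WT (0.36, adjusted p = 0.0267 in edgeR) and in cDC1_WT against cDC2_WT (-0.29, adjusted p = 0.0336), where the medians of all genes were then 0.21 and -0.11, against 0.01 and -0.01 with TMM.

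Id2 was the member with the largest difference. It ranged from 4.68 to 7.59 CPM in pDC_WT (median 5.94), from 1077 to 1854 CPM in cDC1_WT (median 1651) and from 271 to 394 CPM in cDC2_WT (median 330.1). No ranges overlapped. The pDC_WT level was 261-fold lower than that of cDC1_WT (log2 fold change -8.03, SE 0.163, adjusted p = 1.43e-26 in edgeR) and 54.5-fold lower than that of cDC2_WT (-5.77, SE 0.148, adjusted p = 3.36e-24 in edgeR).

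Id3 went the opposite way from Id2. It ranged from 7.01 to 24.8 CPM in pDC_WT (median 17.04), from 0.312 to 2.70 CPM in cDC1_WT (median 0.723) and from 1.99 to 10.2 CPM in cDC2_WT (median 3.21). The pDC_WT libraries lay above all cDC1_WT libraries (log2 fold change 3.94, SE 0.445, adjusted p = 5.83e-09 in edgeR) and overlapped with cDC2_WT (1.82, SE 0.399, adjusted p = 0.00027 in edgeR).

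Id1 had few counts in the WT groups other than cDC1_WT. It ranged from 0 to 2.14 CPM in pDC_WT (median 0.315), from 1.68 to 6.81 CPM in cDC1_WT (median 2.33, 39 to 153 counts) and from 0 to 0.694 CPM in cDC2_WT (median 0.281), with no count in 3 of 8 cDC2_WT libraries. pDC_WT overlapped with both, and the log2 fold change was -2.04 against cDC1_WT (SE 0.900, adjusted p = 0.0508) and 1.36 against cDC2_WT (SE 0.901, adjusted p = 0.204 in edgeR).

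Tcf4, Tcf12 and Id3 were higher and Id2 was lower in pDC_TG than in both conventional DC groups. Against cDC1_WT, 4 members were higher and 1 lower, with 27.1% of all genes higher and 26.6% lower. Against cDC2_WT, 3 were higher and 1 lower, with 24.3% and 23.9% of all genes. Libraries did not overlap for 5 members against cDC1_WT and 4 against cDC2_WT, with 36.5% and 33.2% of all genes. Tcf4 was 55.8-fold higher in pDC_TG than in cDC1_WT (log2 fold change 5.80, SE 0.154) and 15.6-fold higher than in cDC2_WT (3.96, SE 0.144). Id2 was 276-fold lower than in cDC1_WT (-8.11, SE 0.226) and 57.6-fold lower than in cDC2_WT (-5.85, SE 0.204). Id3 was 41.1-fold higher than in cDC1_WT (5.36, SE 0.497) and 9.45-fold higher than in cDC2_WT (3.24, SE 0.459), and no pDC_TG library overlapped with a conventional DC library for these 3 genes or for Tcf12.

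Tcf3 was the fourth member higher in pDC_TG than in cDC1_WT, by 1.28-fold with overlapping libraries (log2 fold change 0.35, SE 0.130, adjusted p = 0.0220 in edgeR). The call was lost without pDC_TG replicate 1 (adjusted p = 0.0589) or replicate 4 (0.0809) and against WT replicates 1 to 4 alone (0.101). Id1 lay below all cDC1_WT libraries in pDC_TG without passing the test (log2 fold change -1.86, SE 1.16, adjusted p = 0.181 in edgeR), and passed it when those 2 groups were fitted alone (adjusted p = 0.0177).

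The conventional DC groups differed from each other in 4 members, 2 higher and 2 lower in cDC1_WT, with 22.8% and 23.4% of all genes. Id2 was 4.79-fold higher in cDC1_WT than in cDC2_WT (log2 fold change 2.26, SE 0.124, adjusted p = 1.00e-15 in edgeR), and Id1 was higher as well (3.40, SE 0.956, adjusted p = 0.00412). Tcf4 was 3.58-fold lower in cDC1_WT (-1.84, SE 0.126, adjusted p = 1.87e-13 in edgeR), and Id3 was 4.35-fold lower with overlapping libraries (-2.12, SE 0.423, adjusted p = 0.000117). The libraries of both groups did not overlap for Tcf4, Id1 and Id2, which held for 21.2% of all genes. Tcf3 (-0.19, adjusted p = 0.147) and Tcf12 (0.19, adjusted p = 0.407 in edgeR) did not pass the test.

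**Figure D3:**
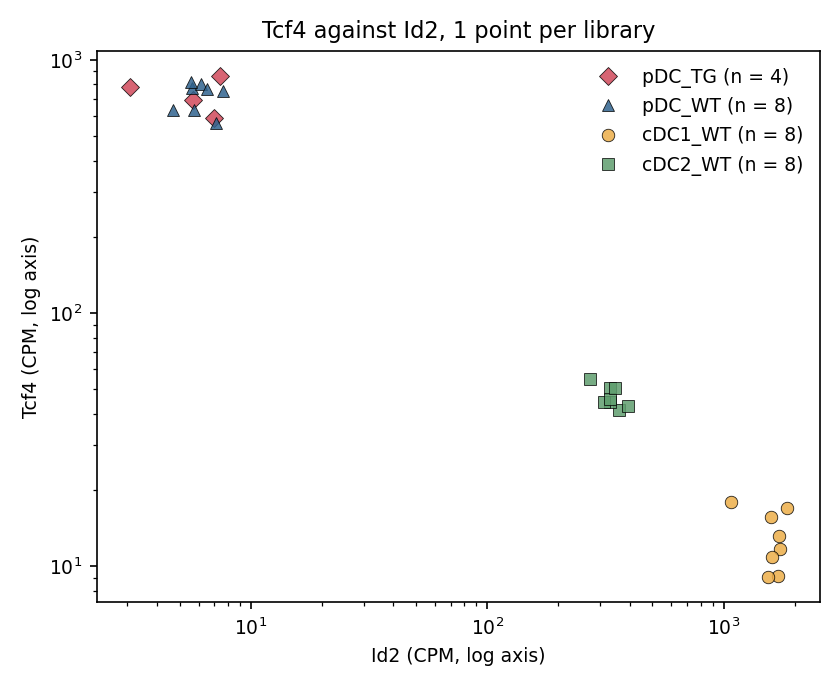
Tcf4 (y axis) against Id2 (x axis), both in CPM on log axes, with 1 point per library. The pDC_TG and pDC_WT libraries share the upper left, with Id2 at or below 7.59 CPM, cDC2_WT lie between, and cDC1_WT lie at the lower right.

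Levels of different genes were compared per kilobase of the principal transcript, as CPM per kb. The 3 E protein transcripts summed to 127 ± 18.3 CPM per kb in pDC_TG, 122 ± 14.5 in pDC_WT, 27.5 ± 4.41 in cDC1_WT and 34.5 ± 4.21 in cDC2_WT (SD, n = 4, 8, 8 and 8). Tcf4 made up 67.0% ± 2.11 of that sum in pDC_TG, 68.7% ± 2.07 in pDC_WT, 5.59% ± 1.38 in cDC1_WT and 16.1% ± 2.56 in cDC2_WT. Tcf3 made up 23.8% ± 0.862 in pDC_TG, 20.8% ± 2.59 in pDC_WT, 85.8% ± 1.43 in cDC1_WT and 77.9% ± 2.93 in cDC2_WT, where it was the main E protein transcript.

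The Id transcripts changed in kind as well as in amount. They summed to 36.7 ± 13.7 CPM per kb in pDC_TG, 16.2 ± 5.80 in pDC_WT, 817 ± 117 in cDC1_WT and 174 ± 19.3 in cDC2_WT. Id3 made up 87.8% ± 5.85 of the sum in pDC_TG and 73.0% ± 9.55 in pDC_WT, whereas Id2 made up 99.4% ± 0.390 in cDC1_WT and 97.9% ± 1.02 in cDC2_WT. The lowest Id3 share in pDC_TG was 83.8% and the highest in pDC_WT was 82.8%.

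**Figure D4:**
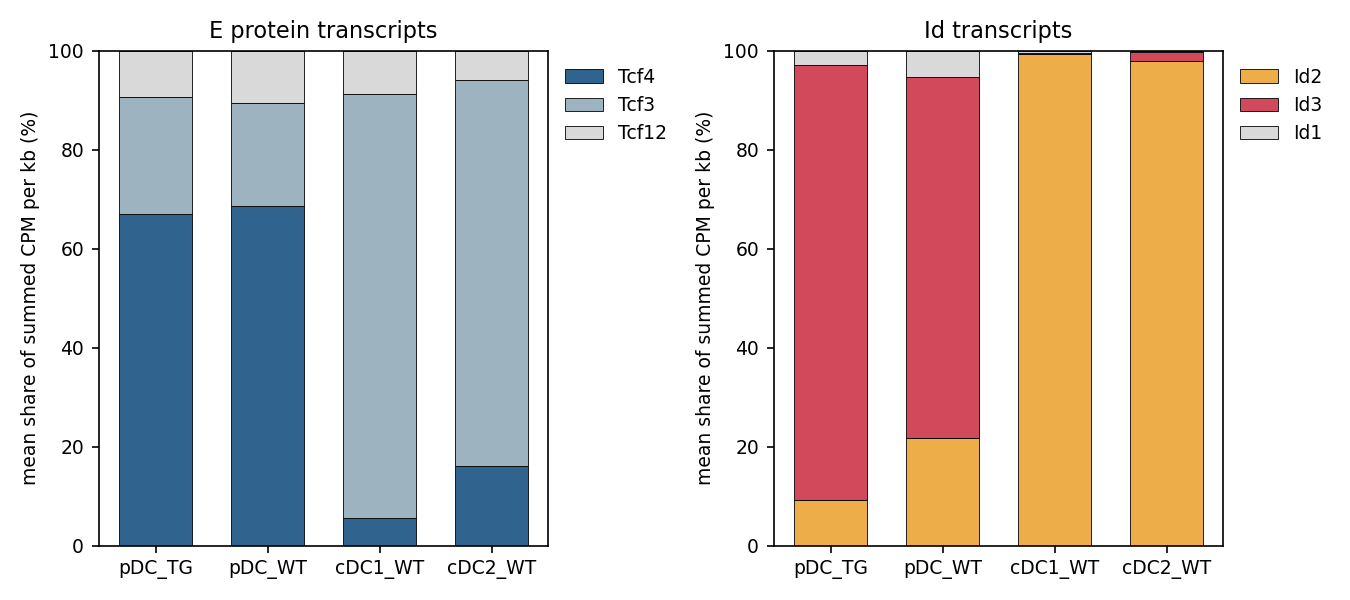
Mean share of each member (y axis, %) in the summed CPM per kb of E protein transcripts (left) and of Id transcripts (right), by group. Tcf4 and Id3 take most of their sums in both pDC groups, and Tcf3 and Id2 in both conventional DC groups.

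The E protein sum was 3.72 ± 1.10 times the Id sum in pDC_TG (2.41 to 5.06) and 8.40 ± 3.09 times in pDC_WT (5.53 to 14.4), with no overlap between the libraries. In cDC1_WT the ratio was 0.0346 ± 0.0101 and in cDC2_WT 0.201 ± 0.0340. The ratio of Tcf4 to Id2 alone overlapped between pDC_TG (19.4 to 58.3) and pDC_WT (18.2 to 33.5). These ratios restate the levels of the members and carry no test of their own. All annotated exons of Tcf4 total 27.38 kb, against 8.58 kb for its principal transcript. Per kb of all annotated exons, the Tcf4 share fell to 49.9% in pDC_TG and 52.6% in pDC_WT, and Tcf4 still ranked above Tcf3 in both. The ratio of the E protein sum to the Id sum then fell to 2.15 in pDC_TG (1.41 to 2.90) and 4.63 in pDC_WT (3.03 to 7.65). The mean ratio of Tcf4 to Id2 was then 12.9 in pDC_TG and 10.7 in pDC_WT.

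Genes with a pattern like that of a member were ranked by the root mean square difference of their log2 CPM over the 28 libraries, after each gene was centred on its mean. Closest to Tcf4 among 9117 genes were Sdc4 (0.41), Runx2 (0.42), Ptprcap (0.44), Lag3 (0.44) and Tsc22d1 (0.45). Of these, Tsc22d1 differed between pDC_TG and pDC_WT, at 631 CPM against 940.0 CPM (log2 fold change -0.57, adjusted p = 0.0187 in edgeR). Closest to Id2 were Chac1 (0.52), Apol10b (0.53), Mpzl2 (0.54), Gm11545 (0.59) and Tnfrsf4 (0.61), all at or below 0.0380 CPM on average in both pDC groups. The log2 CPM included a prior count of 2, which sets the value of a gene near 0. Id2 itself averaged 5.78 CPM in pDC_TG and 6.13 CPM in pDC_WT, so its likeness to these genes depends on that prior.

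Closest to Id3 was Hpse, the heparanase gene, with a larger difference of 0.81, then Spn (0.84) and Cib2 (0.91). Hpse averaged 877 CPM in pDC_TG, 413 CPM in pDC_WT, 20.2 CPM in cDC1_WT and 78.6 CPM in cDC2_WT, and it was higher in pDC_TG than in pDC_WT (log2 fold change 1.09, adjusted p = 1.67e-06 in edgeR). Closest to Tcf12 were Ldoc1l (0.36), Serinc3 (0.37) and Cyb561a3 (0.40), and to Tcf3 Fam192a (0.19), Xab2 (0.20) and Adrbk1 (0.20). No gene came close to Id1, where the nearest was Cpq at 1.26.

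The partners and targets of E proteins were read from 6 lists, whose counts in pDC_TG against pDC_WT stand beside 7.72% of all genes higher and 7.04% lower. In pDC_TG against pDC_WT, 1 of 4 tested other helix-loop-helix genes was lower and none higher, with a list median log2 fold change of -1.04 against 0.00 over all genes. The gene was Lyl1, an E protein partner in blood progenitors, at 0.120 CPM in pDC_TG and 0.663 CPM in pDC_WT (log2 fold change -2.41, adjusted p = 0.0250 in edgeR), near the detection limit in both. Bhlha15, a secretory cell regulator known as Mist1, was at 11.1 CPM in pDC_TG and 30.97 CPM in pDC_WT and did not pass the test (-1.48, adjusted p = 0.129). Against both conventional groups it was higher in pDC_WT (7.02 against cDC1_WT and 9.96 against cDC2_WT). The other 5 genes of the list, Id4 among them, were too low to test.

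Of 7 tested cofactors, 1 was higher and none lower in pDC_TG, with a list median of 0.13 against 0.00 over all genes. It was Lmo4, a LIM-only adaptor, which ran from 73.7 to 96.2 CPM in pDC_TG and from 29.0 to 46.4 CPM in pDC_WT (log2 fold change 1.27, SE 0.15, adjusted p = 2.54e-07 in edgeR). Lmo4 was also lower in pDC_WT than in cDC1_WT (-0.85) and cDC2_WT (-1.02). Its relatives in the LIM-domain complex, Lmo2 (0.13, adjusted p = 0.583) and Ldb1 (0.16, adjusted p = 0.604), did not pass the test in pDC_TG, and Lmo2 was higher in pDC_WT than in cDC1_WT (1.496, adjusted p = 2.27e-14). Cbfa2t3, a corepressor that binds E proteins and is required for normal pDCs, was at 112 CPM in pDC_TG and 98.6 CPM in pDC_WT (0.19, adjusted p = 0.506) and was lower in pDC_WT than in both conventional groups (-0.98 and -1.06).

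Among 5 regulators of the choice between Tcf4 and Id2, 1 was higher and 1 lower in pDC_TG, with a list median of 0.09. Nfil3, which acts upstream of Id2 in cDC1 development, ran from 97.1 to 177 CPM in pDC_TG and from 11.4 to 46.5 CPM in pDC_WT (log2 fold change 2.02, SE 0.28, adjusted p = 4.22e-06 in edgeR). Its pDC_TG mean of 134 CPM, against 98.2 CPM in cDC1_WT and 95.6 CPM in cDC2_WT, did not pass the test against either (adjusted p = 0.192 and 0.166 in edgeR), while Id2 in the same pDC_TG libraries stayed at or below 7.403 CPM. Batf3, the cDC1 factor, had no count in pDC_TG and averaged 0.0756 CPM in pDC_WT (adjusted p = 0.0301 in edgeR), so close to 0 in both that no fold is given. Zeb2, a repressor of Id2 in pDCs (-0.10, adjusted p = 0.949), and Bcl11a, an activator of Tcf4 (0.09, adjusted p = 0.705), did not pass the test and were higher in pDC_WT than in both conventional groups.

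All 11 genes listed as dependent on E2-2 in pDCs were higher in pDC_WT than in cDC1_WT and than in cDC2_WT, with list medians of 4.92 and 4.40 against 0.03 and 0.01 over all genes. Of all genes tested, 30.3% were higher against cDC1_WT and 28.3% against cDC2_WT. The list includes the pDC markers Siglech, Ccr9 and Bst2, which are high in sorted pDCs by definition, so its count is no test of E2-2. In pDC_TG against pDC_WT, 2 of the 11 were lower, where 7.04% of all genes were lower, none was higher and the list median was -0.32. The first was Irf8 itself (-2.07), the gene targeted by Cre, so its fall was set by the design and is not a reading of E2-2. The only other was Bst2, the tetherin gene, which averaged 743 CPM in pDC_TG and 1156 CPM in pDC_WT (-0.64, SE 0.12, adjusted p = 0.000379 in edgeR). Ccr9 (943 CPM in pDC_TG, 1449.6 CPM in pDC_WT, adjusted p = 0.105) and Siglech (1454 CPM in pDC_TG, 2298 CPM in pDC_WT, adjusted p = 0.251) had separate ranges and did not pass the test in the fit over all groups. Spib, Irf7, Runx2 and Bcl11a had log2 fold changes from 0.07 to 0.18 and did not pass it. Ptcra (-0.80), Tlr9 (-0.32) and Pacsin1 (-0.17) had negative log2 fold changes and did not pass it either.

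Of 10 tested lymphoid targets of E proteins, 2 were higher and none lower in pDC_TG, where 7.72% of all genes were higher and 7.04% lower. The list median was 0.09 against 0.00 over all genes. Dntt, which encodes terminal deoxynucleotidyl transferase, ran from 471 to 509.6 CPM in pDC_TG and from 157 to 273 CPM in pDC_WT (log2 fold change 1.25, adjusted p = 4.31e-08 in edgeR). It had no count in cDC1_WT and 0.00511 CPM in cDC2_WT. Foxo1, a factor of early lymphocytes, averaged 154 CPM in pDC_TG and 72.1 CPM in pDC_WT (1.10, adjusted p = 2.54e-07 in edgeR), with 135 CPM in cDC1_WT and 101 CPM in cDC2_WT. Cdkn1a, a cell cycle inhibitor gene that E proteins activate, was lower in pDC_WT than in cDC1_WT (-3.73) and cDC2_WT (-4.04), and Il7r was higher (5.65 and 5.01).

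Id1 and Id3 are known targets of Smad proteins, and 4 of 15 tested genes of that pathway passed the test in pDC_TG, 2 in each direction, where 7.72% of all genes were higher and 7.04% lower. The list median was 0.09 against 0.00 over all genes. Smad7, an inhibitory Smad, averaged 142 CPM in pDC_TG and 84.4 CPM in pDC_WT (log2 fold change 0.75, adjusted p = 0.0134 in edgeR), and Smad1, a Smad of the bone morphogenetic protein branch, 60.6 CPM in pDC_TG and 46.4 CPM in pDC_WT (0.38, adjusted p = 0.0433). The receptor genes Acvr2a (-0.89, adjusted p = 0.00809) and Acvrl1 (-0.88, adjusted p = 0.0332 in edgeR) were lower. Acvrl1 was at 2.74 CPM in pDC_TG and 5.03 CPM in pDC_WT, against 145 CPM in cDC1_WT.

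**Figure D5:**
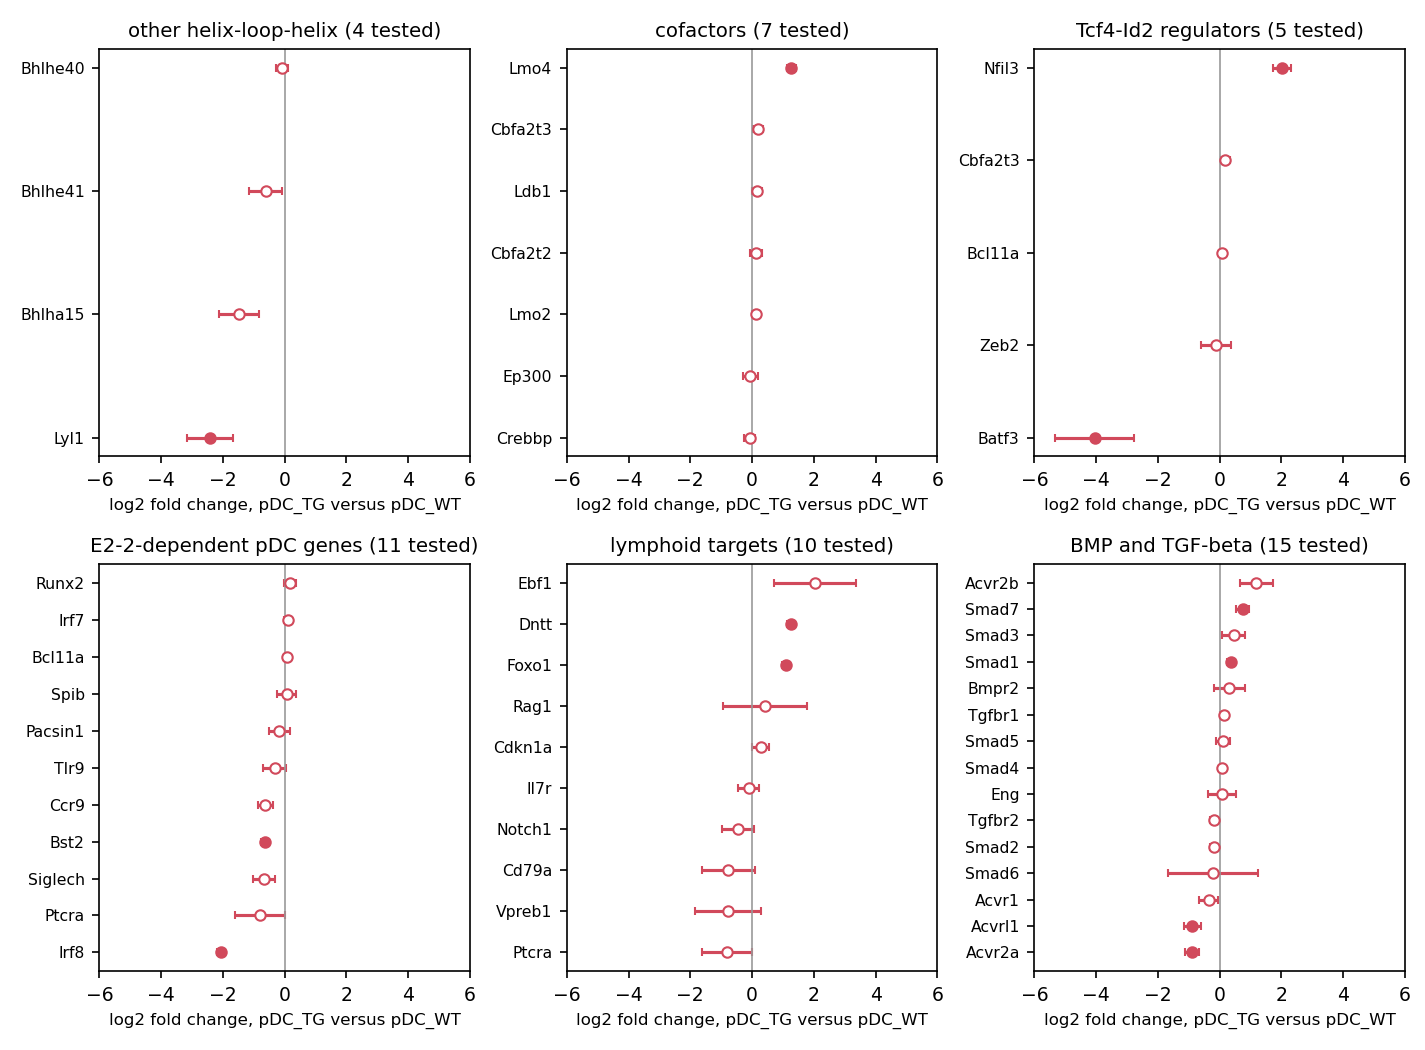
Log2 fold change of each tested gene of the 6 lists (x axis) in pDC_TG versus pDC_WT, with SE bars and filled points where the adjusted p was below 0.05. Filled points lie on the right for Lmo4, Nfil3, Dntt, Foxo1, Smad7 and Smad1 and on the left for Lyl1, Batf3, Irf8, Bst2, Acvr2a and Acvrl1.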

How the data were processed

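Per the labels' protocols, the input was 4 ng of RNA, amplified with SMART-Seq v4, which does not mark strand, and sequenced as single 75 bp reads after 15 PCR cycles. Reads went through TopHat2 2.1.0, Trimmomatic 0.35, SAMtools 0.1.18 and FastQC 0.11.4 with build mm10, per the submitters' processing notes, with no counting tool named there. Raw counts per gene symbol, not normalized, are what the authors deposited. Unassigned reads (8.23% to 18.7% in no gene, 1.04% to 1.57% ambiguous) were left out of library sizes.

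From these counts, edgeR 4.0.16 (R 4.3.3) gave TMM-scaled CPM, the filterByExpr filter (minimum count 10, total 15), 1 robust quasi-likelihood model over the 28 libraries and 6 comparisons with Benjamini-Hochberg adjustment over 13159 genes. The method was also run on simulated counts in which all groups shared the same mean per gene, apart from genes changed in pDC_TG. That run did not hold the differences between cell types seen here. SE is the log2 fold change divided by the root of F. GENCODE M21 gave positions and lengths, and RefSeq the promoters. All library pairs of a group differed beyond sampling noise (chi-square per degree of freedom at least 33.6).

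The labels number the mice 1 to 8 in each WT population without stating that equal numbers mark the same animals, so fits with the number as a block are alternatives only. The fit used in the text treats libraries as independent. The members, the gene lists and the tests were chosen with earlier results of these data known. All 6 members are named, with up to 4 genes of each list by adjusted p in pDC_TG versus pDC_WT, up to 3 in each pDC_WT versus conventional DC comparison, and the nearest 3 or 5 genes by pattern; any further list gene was picked with its values known. Counting error covers reads, not molecules, since PCR copies cannot be told apart.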

Additional observations from a re-analysis of the deposited data

Results flagged for a closer look

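In 4 of 24 sets of values (6 genes in 4 groups), 1 library stood further from the rest than Dixon's limit allows, which chance gives in about 1 of 20 sets. Id3 in pDC_TG replicate 1 was at 70.7 CPM, against 30.95 to 34.0 CPM in the other 3. Tcf12 in pDC_WT replicate 4 was at 109.9 CPM, against 62.9 to 83.2 CPM in the other 7. Id2 in cDC1_WT replicate 3 was at 1077 CPM, against 1548 to 1854 CPM in the other 7, and the same library had the highest Tcf4 (18.01 CPM) and Id3 (2.70 CPM) of its group. Tcf3 in cDC2_WT replicate 5 was at 103 CPM, against 66.4 to 83.2 CPM in the other 7.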

How the results depend on the processing

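Over the alternatives, 412 of 444 fold changes of members kept their direction and side of the threshold, 12 lost it, 7 gained it and 13 changed sign. All sign changes were of values that had not passed the test. In pDC_TG versus pDC_WT these were Tcf4 with WT replicates 1 to 4 alone (-0.09) or the replicate block (-0.10), and Id1 (-0.05) and Id2 (0.01) with WT replicates 5 to 8 alone; leaving out single replicates gave -0.06 to 0.12 for Tcf4, -0.30 to 0.59 for Id1 and -0.22 to 0.13 for Id2. In pDC_WT versus cDC2_WT, Tcf3 became 0.06 with total counts alone and 0.05 with WT replicates 1 to 4 alone.

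Genes called fell to 531 (pDC_TG versus pDC_WT, of 1943), 4359 (pDC_TG versus cDC1_WT), 3612 (pDC_TG versus cDC2_WT), 4777 (pDC_WT versus cDC1_WT), 4390 (pDC_WT versus cDC2_WT) and 2746 (cDC1_WT versus cDC2_WT, of 6085) when tested against a 1.5-fold change, and to 3944 for cDC1_WT versus cDC2_WT with WT replicates 1 to 4 alone. The number of members called in pDC_TG versus pDC_WT was 0 under the 1.5-fold test and with WT replicates 1 to 4 alone, and 0 to 1 without single replicates. Id3 kept its call with DESeq2 (adjusted p = 0.0230) and with the pDC groups alone (0.0052), and its adjusted p ran from 0.0236 to 0.183 without single replicates. Id1 in cDC1_WT versus cDC2_WT was not called with only WT replicates 5 to 8 (log2 fold change 3.04, adjusted p = 0.0677 in edgeR); the cause was not tested.

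Numbers shared by pDC_TG and pDC_WT belong to mice of different genotypes (correlations of deviations -0.136 to 0.033, and 0 of 4 libraries closest to their own number). In comparisons with pDC_TG the replicate block used the 4 shared numbers, so WT libraries with other numbers were left out. With it 1057 genes were called in pDC_TG versus pDC_WT, and Id3 was among them (1.22, adjusted p = 0.0437 in edgeR). Tcf3 in pDC_TG versus cDC1_WT was not called under that block (0.34, adjusted p = 0.118 in edgeR). How far the fall from 1943 genes called came from using fewer libraries was not tested. Because the block pairs different mice, the Id3 call under it adds no weight to the Id3 difference. In the WT comparisons, where equal numbers may or may not mark the same mice, deviations of same-numbered libraries correlated at 0.041 to 0.274 (pDC_WT with cDC1_WT), 0.054 to 0.353 (pDC_WT with cDC2_WT) and 0.049 to 0.287 (cDC1_WT with cDC2_WT), and 8, 6 and 8 of 8 libraries correlated best with their own number. There the block changed the call of Id1 in pDC_WT versus cDC1_WT (-3.33, adjusted p = 0.0147) and of no other member.

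With total counts alone the median log2 fold change of all genes was 0.30, 0.21, 0.28, 0.16 and -0.11, against -0.01 to 0.03 with TMM (pDC_TG against cDC1_WT and cDC2_WT, pDC_WT against cDC1_WT and cDC2_WT, cDC1_WT against cDC2_WT). Genes higher and lower then numbered 4973 and 2507, 4267 and 2487, 5327 and 3072, 4542 and 3108, and 2524 and 3633. Depth limits Id1, at 0 to 46 counts in the pDC libraries.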

Other observations

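Id1 counts in pDC_WT fell into a high and a low set of libraries. They were 37, 13, 44 and 46 in replicates 1, 3, 5 and 7 and 4, 0, 2 and 0 in replicates 2, 4, 6 and 8. Xist, the transcript of the inactive X chromosome, was at 191 to 330 CPM in the first 4 of these libraries and at or below 0.107 CPM in the other 4. In pDC_TG the order was the opposite, with 12 and 17 Id1 counts in replicates 1 and 3, where Xist was at 232 and 246 CPM, and 43 and 27 counts in replicates 2 and 4. In cDC1_WT, where Id1 was most abundant, counts were 47, 114, 42 and 153 in the odd replicates and 91, 39, 51 and 58 in the even ones. In cDC2_WT they were 3, 0, 0 and 17 in the odd replicates and 18, 0, 12 and 11 in the even ones. Xist was at 34.7 to 105 CPM in the odd cDC1_WT replicates and 118 to 189 CPM in the odd cDC2_WT replicates. It was at or below 0.240 CPM in the even replicates of both. The split was seen after the values were known and was not tested.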
